A study of Mus musculus with 6 samples.

Results

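The genes described here are the transcription factors Hif1a and Epas1, the prolyl hydroxylases Egln1 and Egln3, and 6 genes known to be induced by low oxygen, namely Car9, Car12, Ndrg1, Bnip3, Hilpda and Ankrd37. They were chosen by gene symbol with earlier results of these data known, as were the gene lists set beside them. Shares of these genes called are therefore a description. The symbols gave 10 of 55487 genes in the count table. All 10 passed the filter on low counts that left 15978 genes for testing. RNA was sequenced in bulk from tumours of mouse lung, sorted as GFP-positive and CD45-negative cells 11 weeks after tumour initiation. The groups were sgLkb1 tumours, labelled Lkb1 mutant, and sgNeo tumours, labelled Lkb1 wild type, with 3 libraries each. Both groups carried the KP background, a mouse model of lung adenocarcinoma. Lkb1 (gene symbol Stk11) encodes a kinase that activates AMPK and related kinases, and the Neo guide served as the control. The labels give neither strain, age and sex nor what drives GFP, and they do not say whether replicates came from separate animals, so p-values measure the spread between these libraries, which may be technical.

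HIF proteins are dimers of an oxygen-regulated alpha subunit, HIF-1α (gene Hif1a) or HIF-2α (gene Epas1), and the stable beta subunit ARNT. With oxygen present, the EGLN hydroxylases mark the alpha subunit for capture by the VHL ubiquitin ligase and degradation. In hypoxia the alpha subunit accumulates and binds DNA at short elements with the core ACGTG or GCGTG. This control acts mainly on the protein, so the transcript levels given here do not report HIF protein. In the lung, Epas1 is known for its expression in endothelial and alveolar type 2 cells.

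Total counts were 29613678 to 41729299 in the sgLkb1 libraries and 26007503 to 28986526 in the sgNeo libraries. Stk11, the targeted gene, had 23.5, 25.6 and 25.3 counts per 1000000 counts (CPM) in sgLkb1 replicates 1, 2 and 3, against 68.3, 33.4 and 82.7 CPM in sgNeo replicates 1, 2 and 3. The groups did not overlap, the log2 fold change was -1.31 (SE 0.30, edgeR adjusted p = 0.023), and the call was lost in 5 of 6 fits with a library left out (edgeR adjusted p up to 0.0757). Defining markers of the alveolar type 2 cell, from which such tumours can arise, were present but lower in sgLkb1 in 10 of 10 genes. Their summed level was 12931 to 21223 CPM in sgLkb1 libraries and 128692 to 151908 CPM in sgNeo libraries. Leukocyte markers, which the CD45 gate should reduce, summed to 38.9 to 76.7 CPM in sgLkb1 and 35.6 to 48.3 CPM in sgNeo, and 1 of 10 tested, Cd79a, was lower by edgeR, a call lost in 4 of 6 fits with a library left out. DESeq2 called 3 of them higher, Adgre1, Cd68 and S100a8, and 2 lower. Of all tested genes 7.05% were called higher and 8.6% lower by edgeR. In bulk RNA, a change in the number of cells of a type and a change in RNA per cell cannot be told apart.

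Of the 10 genes, 6 were higher in sgLkb1 tumours, 1 was lower and 3 did not pass the test. The higher genes were Car12, Car9, Egln3, Ankrd37, Hilpda and Ndrg1, the lower one was Epas1, and Hif1a, Egln1 and Bnip3 were not called. Car12 met the filter on low counts through its sgLkb1 libraries alone, so its part in the counts and the median given here is a description. Over all tested genes 7.05% were called higher and 8.6% lower, by edgeR's quasi-likelihood test with an adjusted p under 0.05. All 6 higher genes had every sgLkb1 library above every sgNeo library, an order that 16.3% of all tested genes showed, and Epas1 had every sgLkb1 library below, as did 20.3% of all tested genes. In either direction 7 of the 10 genes and 36.5% of all tested genes had groups that did not overlap. The median log2 fold change was 1.17 over the 10 genes and 0.02 over all tested genes. With a library left out, the higher genes numbered 4 without sgNeo replicate 2, 5 without sgNeo replicate 1 or sgLkb1 replicate 2, and 6 in the other fits, while Epas1 was called in every fit.

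**Figure D1:**
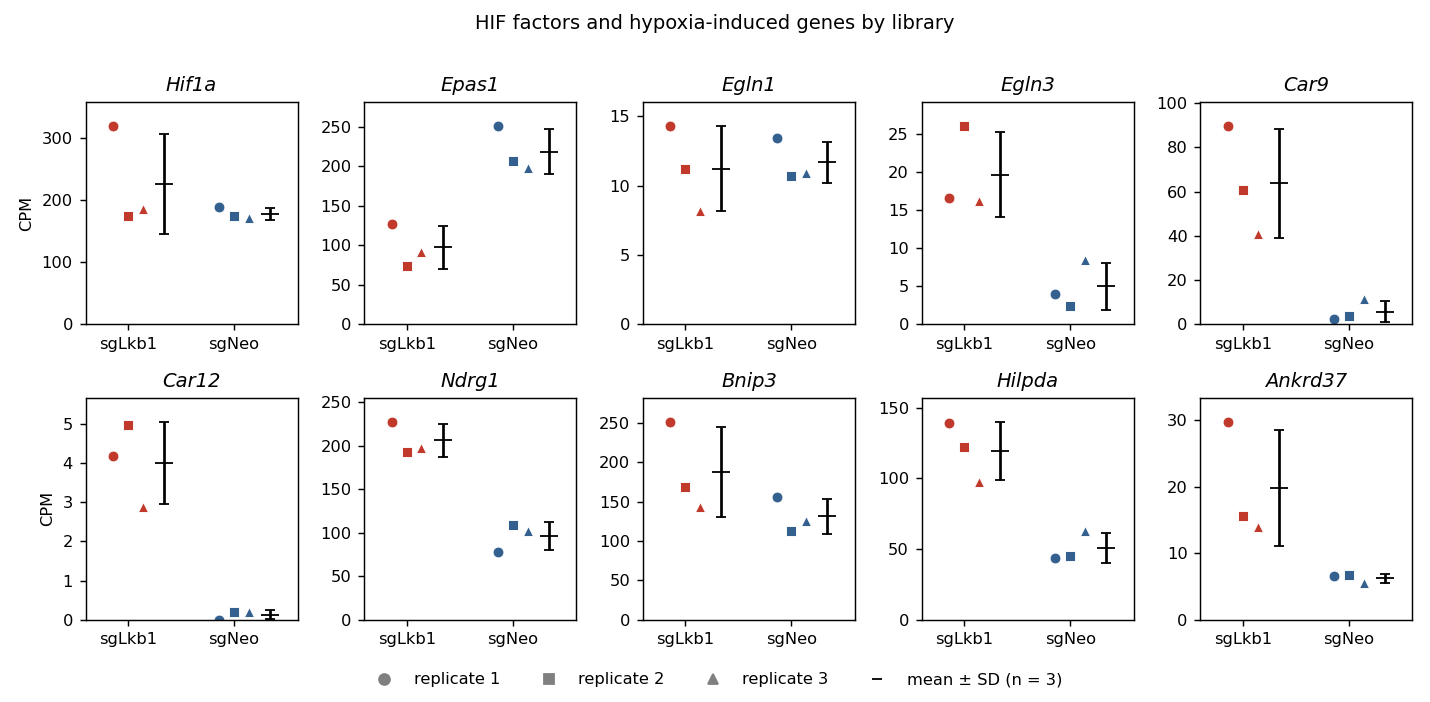
CPM of each of the 10 genes (vertical axes, each from 0) in the sgLkb1 and sgNeo libraries. Each symbol is 1 library, and the bars are the group mean ± SD (n = 3). The groups are apart for Epas1, Egln3, Car9, Car12, Ndrg1, Hilpda and Ankrd37, and overlap for Hif1a, Egln1 and Bnip3.

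Among the oxygen-regulated alpha subunits, Hif1a did not pass the test and Epas1 fell. Hif1a had 320.3, 174 and 186 CPM in sgLkb1 replicates 1, 2 and 3, against 189, 175 and 171 CPM in sgNeo replicates 1, 2 and 3. The sgLkb1 mean was raised by replicate 1 alone, and replicate 2 lay within the sgNeo range. The means were 227 ± 81.1 CPM in sgLkb1 and 178 ± 9.25 CPM in sgNeo (SD, n = 3 each), with a log2 fold change of 0.35 (95% interval -0.21 to 0.90, edgeR adjusted p = 0.376). With sgLkb1 replicate 1 left out it was 0.03. The Hif1a gene occupies bases 73901375 to 73947530 of chromosome 12 (GRCm38, plus strand), and its exons overlap those of Gm15283 and Gm49321, which were at 0.44 CPM or less in every library.

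Epas1 had 127, 74.0 and 90.8 CPM in sgLkb1 replicates 1, 2 and 3, against 251, 206 and 198 CPM in sgNeo replicates 1, 2 and 3. The highest sgLkb1 library, replicate 1, was still below the lowest sgNeo library. The means were 97.1 ± 26.8 CPM in sgLkb1 and 218 ± 28.4 CPM in sgNeo (SD, n = 3 each), a log2 fold change of -1.17 (SE 0.22, 95% interval -1.68 to -0.66, edgeR adjusted p = 0.0111). The call held with each library left out (edgeR adjusted p up to 0.0473). The Epas1 gene occupies bases 86753700 to 86833410 of chromosome 17 (GRCm38, plus strand) and shares no exon with another gene. Beside it, all 10 alveolar type 2 markers were lower, whereas 3 of 12 endothelial markers were higher and 0 lower. Over all tested genes 7.05% were called higher and 8.6% lower. The endothelial markers summed to 122, 139 and 236 CPM in sgLkb1 replicates 1, 2 and 3, against 115, 98.9 and 68.8 CPM in sgNeo replicates 1, 2 and 3, and none of the 12 was at 0 in all libraries. The part of either cell type in the Epas1 result was not tested.

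Since both subunits pair with ARNT, their ratio was also computed, as CPM per kilobase of exon and after their values had been seen. Epas1 over Hif1a was 0.417, 0.448 and 0.514 in sgLkb1 replicates 1, 2 and 3, against 1.40, 1.24 and 1.22 in sgNeo replicates 1, 2 and 3. Epas1 transcript thus exceeded Hif1a transcript per kilobase in every sgNeo library and lay below it in every sgLkb1 library. The mean ratio was 0.46 ± 0.0497 in sgLkb1 and 1.29 ± 0.0992 in sgNeo (SD, n = 3 each), with an exact two-sided permutation p of 0.1, the smallest that 3 libraries against 3 can give.

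The hydroxylases Egln1 and Egln3 differed from each other. Egln1 encodes PHD2, the main HIF hydroxylase at normal oxygen, and Egln3 encodes PHD3, which is itself a HIF target. Egln1 had 14.3, 11.2 and 8.18 CPM in sgLkb1 replicates 1, 2 and 3, against 13.4, 10.7 and 10.9 CPM in sgNeo replicates 1, 2 and 3. The sgNeo range lay inside the sgLkb1 range. The means were 11.2 ± 3.05 CPM in sgLkb1 and 11.7 ± 1.48 CPM in sgNeo (SD, n = 3 each), and the log2 fold change of -0.05 had a 95% interval of -0.65 to 0.54 (edgeR adjusted p = 0.914). Egln3 had 16.6, 26.0 and 16.2 CPM in sgLkb1 replicates 1, 2 and 3, against 4.01, 2.43 and 8.44 CPM in sgNeo replicates 1, 2 and 3. Every sgLkb1 library was higher, and within sgNeo replicate 3 stood highest. The means were 19.6 ± 5.50 CPM in sgLkb1 and 4.96 ± 3.12 CPM in sgNeo (SD, n = 3 each), a log2 fold change of 1.98 (SE 0.45, 95% interval 0.95 to 3.01, edgeR adjusted p = 0.0213). This call was lost without sgNeo replicate 1 (edgeR adjusted p = 0.0799), sgNeo replicate 2 (0.0606) or sgLkb1 replicate 2 (0.0643), and the log2 fold change was 2.60 without sgNeo replicate 3.

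Per kilobase, Egln3 exceeded Egln1 1.57-fold, 3.13-fold and 2.68-fold in sgLkb1 replicates 1, 2 and 3. In sgNeo replicates 1, 2 and 3 the ratio was 0.405, 0.307 and 1.04. The mean ratio was 2.46 ± 0.802 in sgLkb1 and 0.586 ± 0.401 in sgNeo (SD, n = 3 each, exact two-sided permutation p = 0.1, the smallest possible), and this ratio too was chosen after the values had been seen. Egln1 occupies bases 124908587 to 124949324 of chromosome 8 and Egln3 bases 54178981 to 54203860 of chromosome 12 (GRCm38, both minus strand), and neither shares an exon with another gene.

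**Figure D2:**
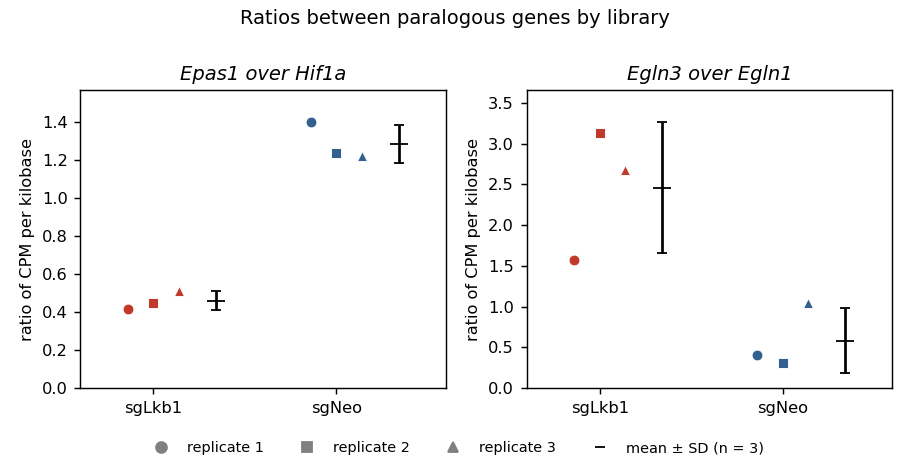
Ratio of CPM per kilobase (vertical axes, from 0) of Epas1 over Hif1a and of Egln3 over Egln1, in sgLkb1 and sgNeo libraries. Symbols are libraries and bars the mean ± SD (n = 3). The Epas1 over Hif1a ratio is 0.417 to 0.514 in sgLkb1 and 1.22 to 1.40 in sgNeo, and the Egln3 over Egln1 ratio is 1.57 to 3.13 in sgLkb1 and 0.307 to 1.04 in sgNeo.

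The remaining HIF machinery was called at about the rate of tested genes at large. Of 13 listed genes 12 were tested, of which 0 were higher and 1 was lower by edgeR, DESeq2 and limma-voom alike. That is 8.33% lower, beside 8.6% over all tested genes. At an unadjusted edgeR p under 0.05 there were 0 higher and 2 lower, and the median log2 fold change was -0.01, beside 0.02 over all tested genes. The lower gene was Cited2, which competes with HIF-1α for the coactivators p300 and CBP and is itself induced by HIF. It had 95.2, 122 and 83.4 CPM in sgLkb1 replicates 1, 2 and 3, against 262, 193 and 172 CPM in sgNeo replicates 1, 2 and 3. The groups did not overlap, and the log2 fold change was -1.06 (SE 0.22, edgeR adjusted p = 0.0148), which was lost without sgNeo replicate 1 (edgeR adjusted p = 0.0545). Arnt, the shared beta subunit, averaged 42.4 ± 1.80 CPM in sgLkb1 and 47.0 ± 3.58 CPM in sgNeo (SD, n = 3 each, log2 fold change -0.15, edgeR adjusted p = 0.519). Hif1an, the asparagine hydroxylase that blocks coactivator binding, averaged 32.3 ± 5.37 CPM in sgLkb1 and 44.9 ± 3.62 CPM in sgNeo. Its sgLkb1 libraries all lay below its sgNeo libraries, but the log2 fold change of -0.48 missed the threshold (edgeR adjusted p = 0.102). The log2 fold changes of the ligase subunits were -0.28 for Vhl, 0.49 for Cul2, 0.03 for Elob, 0.66 for Eloc and -0.04 for Rbx1, and none passed. Nor did Egln2, the third hydroxylase (-0.38), Hif3a, an alpha subunit with inhibitory forms (0.12), or the coactivators Ep300 (0.03) and Crebbp (0.13). Among these, Eloc was called when no filter on low counts was applied (edgeR adjusted p = 0.0284).

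**Figure D3:**
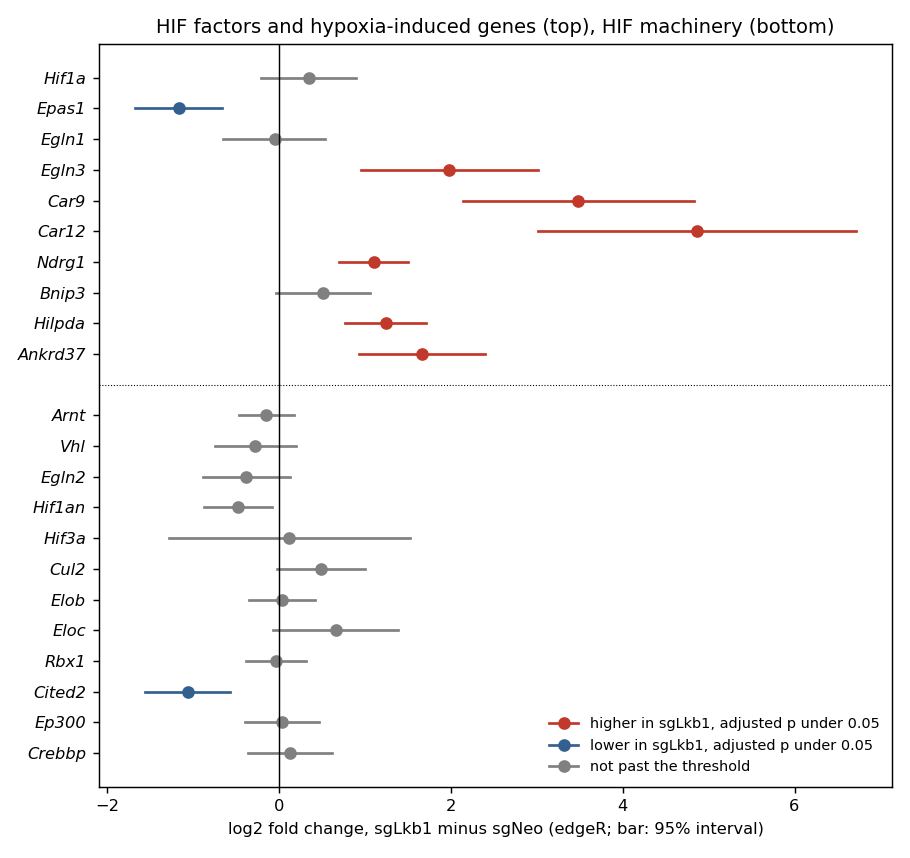
Log2 fold change, sgLkb1 minus sgNeo (horizontal axis), for the 10 genes (above the dotted line) and the 12 tested genes of the HIF machinery (below it). Points are edgeR estimates and bars 95% intervals. The intervals of Egln3, Car9, Car12, Ndrg1, Hilpda and Ankrd37 lie above 0, those of Epas1 and Cited2 below 0, and Hif1an, with an interval below 0, does not pass the adjusted threshold.

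Among the 10 genes the largest log2 fold changes were in the membrane carbonic anhydrases. Car9 and Car12 encode enzymes with an extracellular catalytic domain that hydrate CO2 to bicarbonate and protons, and CA9 is widely used as a marker of hypoxia in tumours. Car9 had 89.7, 60.7 and 40.8 CPM in sgLkb1 replicates 1, 2 and 3, against 2.33, 3.56 and 11.2 CPM in sgNeo replicates 1, 2 and 3. The libraries varied within each group, yet the lowest sgLkb1 library stood well above the highest sgNeo library, replicate 3. The means were 63.7 ± 24.6 CPM in sgLkb1 and 5.69 ± 4.80 CPM in sgNeo (SD, n = 3 each), a log2 fold change of 3.48 (SE 0.59, 95% interval 2.14 to 4.83, edgeR adjusted p = 0.00672). Without sgNeo replicate 3 it was 4.43. The call held with each library left out (edgeR adjusted p up to 0.0385). Exons of Car9 overlap those of the antisense gene Gm12454, which averaged 2.20 ± 0.505 CPM in sgLkb1 and 3.04 ± 0.774 CPM in sgNeo (SD, n = 3 each), and the strand setting of the counting is not given in the sources used here. In sgNeo replicate 1, Gm12454 at 3.93 CPM exceeded Car9 at 2.33 CPM, and their shared reads cannot be told apart here.

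Car12 had 171, 189 and 100 counts in sgLkb1 replicates 1, 2 and 3, against 0, 5 and 5 counts in sgNeo replicates 1, 2 and 3. It was therefore near the limit of detection in sgNeo, where 3 counts correspond to 0.119 to 0.121 CPM. The levels were 4.18, 4.96 and 2.87 CPM in sgLkb1 replicates 1, 2 and 3, against 0, 0.202 and 0.199 CPM in sgNeo replicates 1, 2 and 3. The log2 fold change was 4.86 (SE 0.81, 95% interval 3.01 to 6.72, edgeR adjusted p = 0.0064) and ranged from 4.29 to 5.27 with a library left out. By log2 fold change Car12 ranked 100 and Car9 238 from the highest of 15978 tested genes. Car12 met the filter on low counts through its sgLkb1 libraries alone, so its rank and call are given as a description. Per kilobase, Car9 averaged 27.7 CPM in sgLkb1 and 2.47 CPM in sgNeo, and Car12 0.527 CPM in sgLkb1 and 0.0176 CPM in sgNeo, so Car12 remained the least abundant of the 10 transcripts. Car9 occupies bases 43506966 to 43513729 of chromosome 4 and Car12 bases 66713686 to 66766845 of chromosome 9 (GRCm38, both plus strand).

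Of the other 14 carbonic anhydrases 10 were tested, 2 were higher and 1 was lower by edgeR. Their median log2 fold change was -0.51, beside 0.02 over all tested genes, of which 7.05% were called higher and 8.6% lower. DESeq2 called 3 higher and 2 lower, Car4 and Car8. Car4 averaged 5.38 ± 1.97 CPM in sgLkb1 and 11.2 ± 3.4 CPM in sgNeo (SD, n = 3 each), with groups apart. Its log2 fold change of -1.05 did not pass in edgeR (adjusted p = 0.0906), but was called without a filter on low counts. Car5b, a mitochondrial form, averaged 34.8 ± 4.66 CPM in sgLkb1 and 7.83 ± 2.93 CPM in sgNeo (SD, n = 3 each, log2 fold change 2.15, edgeR adjusted p = 0.00267). Car13, a cytosolic form, averaged 16.7 ± 4.82 CPM in sgLkb1 and 7.25 ± 2.23 CPM in sgNeo (log2 fold change 1.20, edgeR adjusted p = 0.0336), a call lost in 4 of 6 fits with a library left out (up to 0.126). Car8, a carbonic anhydrase-related protein without the enzyme activity, had 46.4, 29.3 and 53.1 CPM in sgLkb1 replicates 1, 2 and 3, against 512, 436 and 405 CPM in sgNeo replicates 1, 2 and 3. Its groups were far apart, with a log2 fold change of -3.39 (edgeR adjusted p = 0.000435). Car2, the abundant cytosolic enzyme, averaged 227 ± 97.1 CPM in sgLkb1 and 125 ± 30.6 CPM in sgNeo and did not pass (edgeR adjusted p = 0.111), although DESeq2 called it (adjusted p = 0.0236). Car3 was high in sgLkb1 replicates 2 and 3 and low in replicate 1, with 0.22, 6.48 and 30.3 CPM in sgLkb1 replicates 1, 2 and 3, against 1.04, 0.081 and 0 CPM in sgNeo replicates 1, 2 and 3 (edgeR adjusted p = 0.084). It was called higher without sgLkb1 replicate 1 (edgeR adjusted p = 0.0214).

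Promoter sequence is shown for the 4 genes with the largest rise whose windows are in the RefSeq table used, where Car9, Egln3 and Ankrd37 hold the HIF core and Car12 does not. Each window is the 250 bases before the RefSeq transcription start on the gene's strand (GRCm38.p6), and capitals mark ACGTG or GCGTG on either strand, with overlapping matches joined. The Car9 window is chr4:43506776-43507025, plus strand. The Car12 window is chr9:66713436-66713685, plus strand. The Egln3 window is chr12:54203875-54204124, minus strand. The Ankrd37 window is chr8:45999851-46000100, minus strand.
Car9: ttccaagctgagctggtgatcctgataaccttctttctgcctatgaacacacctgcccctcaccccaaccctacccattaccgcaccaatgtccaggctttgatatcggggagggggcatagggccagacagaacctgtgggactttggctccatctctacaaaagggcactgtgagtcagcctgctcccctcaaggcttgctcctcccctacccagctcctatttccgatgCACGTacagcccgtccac
Car12: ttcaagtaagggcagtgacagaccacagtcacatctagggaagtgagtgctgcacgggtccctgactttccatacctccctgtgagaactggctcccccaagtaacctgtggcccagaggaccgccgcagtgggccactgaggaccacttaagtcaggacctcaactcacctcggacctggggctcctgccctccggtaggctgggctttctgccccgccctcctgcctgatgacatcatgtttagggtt
Egln3: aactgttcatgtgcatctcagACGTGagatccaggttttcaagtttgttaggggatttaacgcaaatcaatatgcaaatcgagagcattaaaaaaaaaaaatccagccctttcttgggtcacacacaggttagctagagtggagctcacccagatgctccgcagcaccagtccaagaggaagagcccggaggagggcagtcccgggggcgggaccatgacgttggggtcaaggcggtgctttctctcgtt
Ankrd37: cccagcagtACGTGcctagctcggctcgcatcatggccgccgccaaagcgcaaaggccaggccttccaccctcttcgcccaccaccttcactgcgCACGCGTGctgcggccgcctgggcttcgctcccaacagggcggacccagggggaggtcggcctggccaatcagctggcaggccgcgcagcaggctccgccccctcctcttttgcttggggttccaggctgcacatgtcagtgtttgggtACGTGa

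In the Car9 window the single core lies on the other strand with its first printed base 18 bases before the start. The annotation used for lengths begins Car9 inside this window. In that annotation the Ankrd37 window lies wholly inside the gene, which begins at base 46005707 on the minus strand. The Hif1a window, not printed here, also lies inside its gene, which begins at base 73901375. The single Egln3 core begins 229 bases before the start, and Ankrd37 has 4 cores, of which the nearest begins 6 bases before the start. Of the 10 genes 8 had a window and 7 of these 8 held a core in at least 1 window, including Hif1a and Egln1, which were not called. Bnip3, also not called, held 5 matches, where a palindromic CACGTG counts on both strands. Over all 32851 windows 38.6% held at least 1 core and 6.58% held at least 3. A match describes letters in this window only.

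Ankrd37, Hilpda and Ndrg1 rose by smaller folds from levels well above the limit of detection. Ankrd37, a small ankyrin-repeat protein known as a HIF-1 target, had 29.8, 15.6 and 13.9 CPM in sgLkb1 replicates 1, 2 and 3, against 6.54, 6.72 and 5.46 CPM in sgNeo replicates 1, 2 and 3. All sgLkb1 libraries were above all sgNeo libraries, with replicate 1 standing above the other two. The means were 19.8 ± 8.71 CPM in sgLkb1 and 6.24 ± 0.683 CPM in sgNeo (SD, n = 3 each), a log2 fold change of 1.66 (SE 0.32, 95% interval 0.93 to 2.40, edgeR adjusted p = 0.0118). The call was lost without sgNeo replicate 2 (edgeR adjusted p = 0.0509). Ankrd37 occupies bases 45996902 to 46005707 of chromosome 8 (GRCm38, minus strand), and its exons overlap those of Ufsp2, which averaged 66.0 ± 14.4 CPM in sgLkb1 and 59.7 ± 4.59 CPM in sgNeo, and of Lrp2bp, which stayed at 0.637 CPM or less. Ufsp2 lies on the plus strand and was more abundant than Ankrd37. The Ankrd37 counts were not whole in 4 of 6 libraries, and reads shared with Ufsp2 cannot be told apart here.

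Hilpda encodes a small lipid droplet protein that inhibits the triglyceride lipase ATGL. It had 139, 122 and 97.7 CPM in sgLkb1 replicates 1, 2 and 3, against 43.9, 45.2 and 63.1 CPM in sgNeo replicates 1, 2 and 3. The groups did not overlap, with sgNeo replicate 3 highest among sgNeo as for Car9 and Egln3. The means were 119.6 ± 20.6 CPM in sgLkb1 and 50.7 ± 10.7 CPM in sgNeo (SD, n = 3 each), a log2 fold change of 1.24 (SE 0.20, 95% interval 0.77 to 1.71, edgeR adjusted p = 0.00629). Hilpda occupies bases 29272488 to 29275446 of chromosome 6 (GRCm38, plus strand) and shares no exon with another gene.

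Among 13 tested lipid droplet and ATGL genes, 1 was higher and 3 were lower, with a median log2 fold change of -0.47. That is 7.69% higher and 23.1% lower, beside 7.05% higher and 8.6% lower over all tested genes. With a library left out, 0 to 3 were higher and 2 to 3 lower. Pnpla2, which encodes ATGL, the enzyme that the Hilpda product inhibits, had 104, 122 and 141 CPM in sgLkb1 replicates 1, 2 and 3, against 223, 239 and 291 CPM in sgNeo replicates 1, 2 and 3. Its groups did not overlap, and the log2 fold change was -1.04 (SE 0.18, edgeR adjusted p = 0.00788). Abhd5, the ATGL coactivator, averaged 38.7 ± 6.65 CPM in sgLkb1 and 66.3 ± 7.81 CPM in sgNeo (log2 fold change -0.78, edgeR adjusted p = 0.0215), and this call was lost in 5 of 6 fits with a library left out (up to 0.0862). Fitm2, which takes part in droplet formation, averaged 30.0 ± 2.86 CPM in sgLkb1 and 58.5 ± 4.48 CPM in sgNeo (SD, n = 3 each, log2 fold change -0.96, edgeR adjusted p = 0.00489). The higher gene was Cidea, a droplet fusion protein, at 10.7, 8.63 and 9.35 CPM in sgLkb1 replicates 1, 2 and 3, against 0.923, 0.972 and 3.51 CPM in sgNeo replicates 1, 2 and 3. Its log2 fold change was 2.41 (edgeR adjusted p = 0.0208), 3.33 without sgNeo replicate 3, and its call was lost without sgNeo replicate 1 or 2. Plin2, the common droplet coat protein, averaged 308 ± 77.8 CPM in sgLkb1 and 242 ± 17.3 CPM in sgNeo and did not pass (edgeR adjusted p = 0.308), but was called higher without sgLkb1 replicate 1 (0.035), as was Dgat2. Hilpda and Pnpla2 thus moved in opposite directions at the transcript level.

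Ndrg1, a stress-responsive gene induced by hypoxia and by other signals, had 228, 193 and 198 CPM in sgLkb1 replicates 1, 2 and 3, against 78.2, 109 and 102 CPM in sgNeo replicates 1, 2 and 3. The libraries of each group lay close together and the groups were apart. The means were 207 ± 19.1 CPM in sgLkb1 and 96.2 ± 16.0 CPM in sgNeo (SD, n = 3 each), a log2 fold change of 1.10 (SE 0.17, 95% interval 0.70 to 1.5, edgeR adjusted p = 0.00539). This was the lowest adjusted p of the 10 genes, at the smallest fold of the 6 that rose. Among its 3 paralogues 0 passed by edgeR, DESeq2 or limma-voom, with log2 fold changes of 0.72 for Ndrg2, -0.42 for Ndrg3 and 0.35 for Ndrg4. Of all tested genes 7.05% were called higher and 8.6% lower by edgeR. Ndrg2 and Ndrg3 had an unadjusted edgeR p of 0.0373 and 0.023, and Ndrg2 was called when no filter on low counts was applied (edgeR adjusted p = 0.0424). Ndrg1 occupies bases 66929318 to 66969640 of chromosome 15 (GRCm38, minus strand). Its exons overlap those of Gm2895, at 1.93 CPM or less, and of Gm17035, which had no counts in any library.

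Bnip3, which encodes a mitochondrial receptor for mitophagy, did not pass the test. It had 252, 169 and 143 CPM in sgLkb1 replicates 1, 2 and 3, against 156, 113 and 126 CPM in sgNeo replicates 1, 2 and 3. Replicate 3 of sgLkb1 lay below replicate 1 of sgNeo, so the groups overlapped. The means were 188 ± 57.0 CPM in sgLkb1 and 131 ± 21.9 CPM in sgNeo (SD, n = 3 each), a log2 fold change of 0.51 with a 95% interval of -0.03 to 1.06 (edgeR adjusted p = 0.188), and 0.25 without sgLkb1 replicate 1. Its exons overlap those of Gm45507 on the other strand, which was given 1794, 368 and 0 counts in sgLkb1 replicates 1, 2 and 3, against 263, 70 and 0 counts in sgNeo replicates 1, 2 and 3. With both genes summed, an alternative added after seeing the data, the level was 295.6, 178.2 and 142.7 CPM in sgLkb1 replicates 1, 2 and 3, against 166.1, 115.5 and 126.2 CPM in sgNeo replicates 1, 2 and 3. The groups still overlapped, and the log2 fold change was 0.60 (edgeR adjusted p = 0.196). Bnip3 occupies bases 138890836 to 138909519 of chromosome 7 (GRCm38, minus strand).

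Of 9 tested mitophagy receptors and regulators outside the 10 genes, 0 passed in either direction by edgeR or DESeq2, and 1 was lower by limma-voom. At an unadjusted edgeR p under 0.05 there were 0 higher and 2 lower. The median log2 fold change was -0.13, beside 0.02 over all tested genes. Of all tested genes 7.05% were called higher and 8.6% lower by edgeR, so 0 calls among 9 genes is near that share. Bnip3l, the paralogue of Bnip3, had 465, 305 and 219 CPM in sgLkb1 replicates 1, 2 and 3, against 328, 269.7 and 232 CPM in sgNeo replicates 1, 2 and 3. As for Hif1a, Bnip3 and Ankrd37, sgLkb1 replicate 1 stood highest, and the log2 fold change was 0.25 (edgeR adjusted p = 0.588). Sqstm1, the autophagy adaptor p62, averaged 475 ± 22.4 CPM in sgLkb1 and 676 ± 20.5 CPM in sgNeo (SD, n = 3 each), with groups apart, a log2 fold change of -0.51 and an edgeR adjusted p of 0.055. It passed with limma-voom (adjusted p = 0.0428) and with a robust dispersion in edgeR (adjusted p = 0.0492).

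Across the 10 genes, sgLkb1 replicate 1 gave the highest sgLkb1 level for 8, beside 38.6% of all tested genes. The lowest sgLkb1 level was in replicate 3 for 7, and the share of all tested genes for this was not computed. Without sgLkb1 replicate 1 the 10 genes still gave 6 higher and 1 lower call. By mean level per kilobase the order in sgLkb1 was Hilpda (108 CPM per kilobase), Bnip3 (82.9), Hif1a (38.5), Ndrg1 (31.3), Car9 (27.7), Epas1 (17.4), Ankrd37 (12.8), Egln3 (7.36), Egln1 (3.12) and Car12 (0.527). Only Bnip3 and Hif1a, Egln3 and Egln1, and Egln1 and Car12 were neighbours in that order whose libraries did not overlap. In sgNeo the order was Bnip3 (58.1 CPM per kilobase), Hilpda (46.0), Epas1 (39.0), Hif1a (30.2), Ndrg1 (14.6), Ankrd37 (4.05), Egln1 (3.24), Car9 (2.47), Egln3 (1.86) and Car12 (0.0176). There the libraries overlapped between Bnip3 and Hilpda, Hilpda and Epas1, Ankrd37 and Egln1, Egln1 and Car9, and Car9 and Egln3. Car9 thus had rank 5 in sgLkb1 and rank 8 in sgNeo, while Epas1 had rank 6 in sgLkb1 and rank 3 in sgNeo.

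Among other genes that hypoxia induces in many cell types, glycolytic and secreted products rose in part while most did not pass the test. Of 44 such genes, all of them tested, 14 were higher (31.8%) and 2 lower (4.55%), beside 7.05% higher and 8.6% lower over all tested genes, and their median log2 fold change was 0.55. This list was written with earlier results of these data known, so its shares are a description. The count of higher genes moved with single libraries. Leaving out sgNeo replicate 1, 2 or 3 left 7, 4 or 8 higher genes, in that order. Leaving out sgLkb1 replicate 2 or 3 left 9 each time, and leaving out sgLkb1 replicate 1 gave 16. In the glycolysis part of the list 6 of 19 were higher, namely Pgk1, Eno1, Slc16a3, Pgam1, Pfkp and Slc2a1, and Pfkfb4 and Slc2a3 were lower. Among the other 25 genes Adm, Stc2, Vegfa, Tmem45a, Lox, Ddit4, Ak4 and Mxi1 were higher and 0 were lower by edgeR. DESeq2 called 10 higher and 1 lower, P4ha1, and limma-voom 5 higher and 0 lower. An unadjusted edgeR p under 0.05 gave 10 higher and 2 lower. Without sgLkb1 replicate 1, Tfrc was called lower. Adm, Tmem45a and Lox would not have met the filter on low counts by their sgNeo libraries alone, nor Slc2a3 by its sgLkb1 libraries alone. The part of these genes in the counts is a description.

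Pgk1, a glycolytic kinase that makes ATP, had 403, 355 and 324 CPM in sgLkb1 replicates 1, 2 and 3, against 115, 108 and 149.5 CPM in sgNeo replicates 1, 2 and 3 (log2 fold change 1.54, edgeR adjusted p = 0.00174). Its groups were well apart. Eno1, the enolase, averaged 1654 ± 357 CPM in sgLkb1 and 711 ± 79.8 CPM in sgNeo (log2 fold change 1.22, edgeR adjusted p = 0.00861, lost without sgNeo replicate 2 at 0.0549). Slc16a3, the lactate exporter MCT4, averaged 44.4 ± 7.88 CPM in sgLkb1 and 11.3 ± 6.44 CPM in sgNeo (log2 fold change 1.97, edgeR adjusted p = 0.0108), and 18.7 CPM in sgNeo replicate 3 was its highest sgNeo value, as for Car9. Slc2a1, the glucose transporter GLUT1, averaged 156 ± 37.8 CPM in sgLkb1 and 89.5 ± 14.5 CPM in sgNeo (log2 fold change 0.80, edgeR adjusted p = 0.0388), a call lost in 5 of 6 fits with a library left out (up to 0.159). Ldha, lactate dehydrogenase A, averaged 2835 ± 166 CPM in sgLkb1 and 1885 ± 221 CPM in sgNeo and did not pass in edgeR (adjusted p = 0.0649), although DESeq2 called it (adjusted p = 0.013). Pdk1, the kinase that restrains pyruvate dehydrogenase, averaged 45.5 ± 10.3 CPM in sgLkb1 and 34.5 ± 8.24 CPM in sgNeo (edgeR adjusted p = 0.29).

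Both lower genes belong to the glycolysis part of the list. Pfkfb4, which makes the activator of phosphofructokinase, had 29.6, 18.0 and 24.5 CPM in sgLkb1 replicates 1, 2 and 3, against 80.5, 81.2 and 87.2 CPM in sgNeo replicates 1, 2 and 3. Its groups were tight and apart, and on the log2 scale they differed by -1.79 (SE 0.20, edgeR adjusted p = 0.00133). Slc2a3, the glucose transporter GLUT3, had 0.171, 0.21 and 1.43 CPM in sgLkb1 replicates 1, 2 and 3, against 24.9, 13.8 and 2.11 CPM in sgNeo replicates 1, 2 and 3 (log2 fold change -4.50, edgeR adjusted p = 0.027). Its libraries spread widely, and the call was lost in 4 of 6 fits with a library left out (up to 0.0824) and with limma-voom (adjusted p = 0.105). Its log2 fold change was -6.14 without sgLkb1 replicate 3 and -3.73 without sgNeo replicate 1. Slc2a3 had 7, 8 and 50 counts in sgLkb1 replicates 1, 2 and 3. These libraries alone would not have met the filter on low counts, so its call is given as a description.

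Among secreted products of the pathway, Adm, the vasodilator peptide adrenomedullin, had 11.5, 21.2 and 16.5 CPM in sgLkb1 replicates 1, 2 and 3, against 0.201, 0.891 and 0.757 CPM in sgNeo replicates 1, 2 and 3. Like Car12 it was low in sgNeo, with 5, 22 and 19 counts in sgNeo replicates 1, 2 and 3. The log2 fold change of Adm was 4.73 (SE 0.52, edgeR adjusted p = 0.00131). Its sgNeo libraries alone would not have met the filter on low counts, so its call is given as a description. Stc2, the glycoprotein stanniocalcin-2, averaged 13.4 ± 1.41 CPM in sgLkb1 and 0.762 ± 0.524 CPM in sgNeo (log2 fold change 4.13, edgeR adjusted p = 0.00148, and 4.85 without sgNeo replicate 1). Vegfa, the endothelial growth factor, had 231, 203 and 184 CPM in sgLkb1 replicates 1, 2 and 3, against 130.2, 123 and 126 CPM in sgNeo replicates 1, 2 and 3. Its groups were apart, but the log2 fold change was 0.71 (edgeR adjusted p = 0.0167), and the call was lost without any 1 of the sgNeo libraries (up to 0.0931). Lox, a lysyl oxidase of the matrix, had 7.68, 7.95 and 35.8 CPM in sgLkb1 replicates 1, 2 and 3, against 1.64, 1.58 and 0.279 CPM in sgNeo replicates 1, 2 and 3 (log2 fold change 3.87, edgeR adjusted p = 0.0172). It was highest in sgLkb1 replicate 3, and the log2 fold change was 2.73 without that library. Lox was not called without sgNeo replicate 2 (edgeR adjusted p = 0.0628) or with limma-voom (adjusted p = 0.0853). As for Adm, its sgNeo libraries alone would not have met the filter on low counts.

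**Figure D4:**
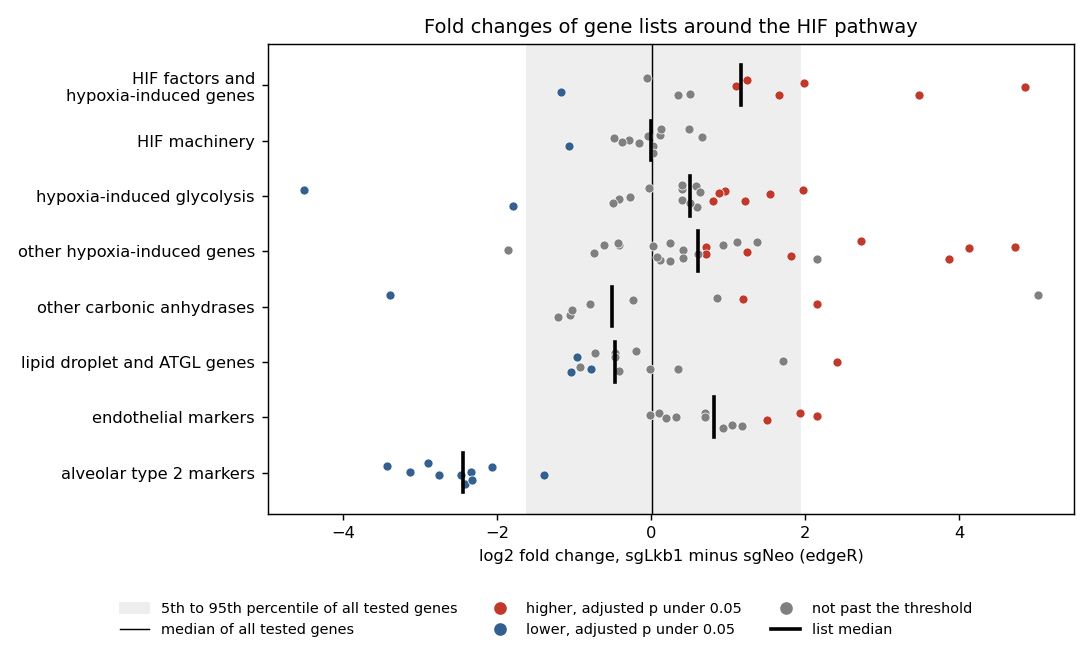
Log2 fold change, sgLkb1 minus sgNeo (horizontal axis), of each tested gene in 8 lists. Points are genes, thick bars are list medians, and the grey band runs from the 5th to the 95th percentile of all tested genes (-1.61 to 1.93). The median of the HIF and hypoxia genes is 1.17, that of the HIF machinery -0.01 and that of the alveolar type 2 markers -2.44.

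Some markers of other cells differed between the genotypes, and several of these calls were lost when a library was left out. The shares to set beside the counts below are 7.05% higher and 8.6% lower over all tested genes. Fibroblast markers were higher in 4 of 10 genes and summed to 181, 259.9 and 1402 CPM in sgLkb1 replicates 1, 2 and 3, against 119, 48.8 and 39.1 CPM in sgNeo replicates 1, 2 and 3. These calls numbered 0 without sgNeo replicate 2 or 3, 1 without sgLkb1 replicate 3 and 2 without sgNeo replicate 1, and limma-voom gave 1. The fibroblast sum was highest in sgLkb1 replicate 3, as Lox was, and 7 of the 10 genes had their lowest sgLkb1 level there. The share of all tested genes that were lowest in that library was not computed. Mesothelial markers were higher in 2 of 5 tested genes, Msln and Aldh1a2, and summed to 829.7, 1420.1 and 1129 CPM in sgLkb1 replicates 1, 2 and 3, against 173, 191 and 428 CPM in sgNeo replicates 1, 2 and 3. There was 1 such call without sgNeo replicate 2. Without sgLkb1 replicate 1 there were 5, with Upk1b, Upk3b and Wt1 added, and Wt1 was not tested in the main fit. Msln made up most of the sum in every library, with 813, 1275 and 1012 CPM in sgLkb1 replicates 1, 2 and 3, against 168, 188 and 426 CPM in sgNeo replicates 1, 2 and 3. Within sgLkb1, Msln and Aldh1a2 were highest in replicate 2. The other tested markers were highest in replicate 3, with 1.79, 3.1 and 20.5 CPM for Upk1b in sgLkb1 replicates 1, 2 and 3. Those of Lrrn4 were 0.465, 1.36 and 13.1 CPM and those of Upk3b 0.416, 1.73 and 16.5 CPM. In sgNeo replicate 3, where Car9, Egln3 and Hilpda were highest among sgNeo, Msln was highest too, but Upk1b was lowest (0.358 CPM) and Lrrn4 had no counts. Alveolar type 1 markers were higher in 1 and lower in 3 of 8 genes, and club and ciliated markers lower in 1 of 6. With a library left out, these counts were 0 to 1 and 1 to 4 for type 1 markers, and 0 to 1 for club and ciliated markers. Pericyte and smooth muscle markers were called in 0 of 6 tested genes by edgeR, in 4 by DESeq2 (all higher) and in 4 at an unadjusted edgeR p under 0.05. Erythroid markers gave 0 of 2 by either tool, also unadjusted. The part of these cell types in the levels of the 10 genes was not tested.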

How the data were processed

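Lungs were digested, red cells lysed, and libraries made with the Nextera XT kit, per the labels' protocols. The authors deposited 1 table of expected counts, and FastQC, STAR, RSEM, DESeq2 and build GRCm38 are named without roles or versions, per the submitters' processing notes. For the annotation release and strand setting, the sources used here give nothing. RSEM can divide reads between overlapping genes: Hif1a, Car9, Ndrg1, Bnip3 and Ankrd37 had counts that were not whole.

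Expected counts were rounded, filtered with filterByExpr, scaled with TMM and compared with edgeR 4.0.16 in R 4.3.3 (glmQLFit and glmQLFTest, two-sided, genotype as the only term, Benjamini-Hochberg adjustment over 15978 genes). CPM uses the scaled library sizes. The SE is the absolute log2 fold change over the square root of F, and the 95% intervals come from it. Levels per kilobase use exon lengths of GENCODE vM21, in which 54435 of 55487 IDs occur with the same version. A symbol with several rows was represented by its most abundant row. The script was tested on simulated data.

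The 10 genes and all lists were chosen with earlier results of these data known. Genes were named by rule: the 10, the HIF machinery, Stk11, the first 2 genes and the 4 with the lowest p of each other list, and the 3 genes closest in pattern to Hif1a, Epas1, Car9 and Car12. Pgam1, Pfkp, Slc2a3, Ldha, Lox, Ddit4, Ak4 and Mxi1 were added after their values were seen. Other settings tried were upper-quartile and RLE scaling, testing without a filter or with CPM of at least 1 in 3 libraries, a robust dispersion, DESeq2 1.42.0, limma-voom (limma 3.58.1), a replicate block, and fits that each omit 1 library.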

Additional observations from a re-analysis of the deposited data

How the results depend on the processing

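The 10 genes gave 6 higher and 1 lower call under upper-quartile and RLE scaling, without a filter, with the stricter filter, with a robust dispersion, DESeq2, limma-voom and the replicate block. With each library left out there were 4 to 6 higher calls and 1 lower call. Over all tested genes, higher calls numbered 1127 and were 1917 without a filter, 1773 with DESeq2 and 447 to 1368 with a library left out. Lower calls numbered 1374, and 682 to 1412 with a library left out. Of the 44 other hypoxia-induced genes 14 were higher, and 4 to 16 with a library left out. They numbered 18 without a filter, 19 with DESeq2, 15 with the replicate block and 12 with limma-voom. Of the 44, 2 were lower, 1 with limma-voom and 1 to 2 with a library left out. There were 3 lower without a filter, with DESeq2 and with the replicate block. The labels do not say whether replicate numbers pair the libraries. Correlations of same-numbered deviations were 0.135, -0.021 and 0.115, and those of other pairs ran from -0.174 to 0.088, which cannot decide it. The fit with the replicate block called 1336 genes higher and 1544 lower. With it Slc2a3 (adjusted p 0.0649) and Mxi1 (0.0529) lost their calls, Sqstm1 (0.0471) and Ldha (0.0334) were called, and 0 of the 4 fibroblast calls remained. Among 60 genes followed under every setting, leaving out a library gave the same direction and call in 285 of the fits, lost the call in 59, gained it in 3 and reversed the direction in 13, each time for a gene that was not called. Over these fits the log2 fold change ranged from -0.26 to 0.12 for Egln1, -0.27 to 0.74 for Hif3a, -0.07 to 0.19 for Elob, -0.09 to 0.04 for Rbx1, -0.09 to 0.18 for Ep300, -0.11 to 0.28 for Crebbp, -0.07 to 0.47 for Bnip3l and -0.43 to 0.8 for Ndrg4. Over the other settings, direction and call stayed the same in 463 results of a gene under a setting. The call was lost in 6 and gained in 11. Genes that were not called and remained so count among those that stayed the same. The causes were not tested. Depth limits Car12 in sgNeo, where levels lie near that of 3 counts, and floors cover counting error only.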

Other observations

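For Hif1a, Epas1, Car9 and Car12, the most similar of 10962 genes with a mean of at least 5 CPM were found. Similarity was the root mean square difference between centred log2 CPM over the 6 libraries. The similar genes were chosen for their likeness, so their values are a description. Closest to Epas1 was Tmem50b, a membrane protein gene, with 219, 126 and 155 CPM in sgLkb1 replicates 1, 2 and 3, against 483, 375 and 354 CPM in sgNeo replicates 1, 2 and 3, a difference of 0.063 on the log2 scale. Closest to Hif1a was Atp6ap2, an accessory subunit of the proton pump, with 313, 170.2 and 179.7 CPM in sgLkb1 replicates 1, 2 and 3, against 187, 168 and 155 CPM in sgNeo replicates 1, 2 and 3 (0.042). It too was high in sgLkb1 replicate 1 alone.

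The likeness was looser for the carbonic anhydrases. Closest to Car9 was Mucl3, a mucin-like gene, with 1505, 881 and 1050.3 CPM in sgLkb1 replicates 1, 2 and 3, against 29.0, 49.7 and 129 CPM in sgNeo replicates 1, 2 and 3 (0.384). Among sgNeo libraries it was highest in replicate 3, as Car9 was. Closest to Car12 was Plac8, with 104, 139.8 and 115 CPM in sgLkb1 replicates 1, 2 and 3, against 2.69, 6.68 and 8.48 CPM in sgNeo replicates 1, 2 and 3 (0.308), followed by Adm (0.338), which is described above among the hypoxia-induced genes.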
